A study of Mus musculus with 4 samples.

Results

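Transcripts of 8 interferon pathway genes were followed in mouse NIH3T3 fibroblasts in which the kinase PKR was to be switched on by tetracycline withdrawal. They are the interferon regulatory factor genes Irf1, Irf2, Irf3 and Irf8, the feedback inhibitor gene Socs1, and the interferon-responsive genes Gbp2, Lgals3bp and Adar. A probe set was taken when its only gene symbol in the platform annotation was 1 of these names. This gave 8 probe sets, 1 for each of the 8 genes, of 13057 probe sets and 6137 named genes on the arrays. NIH3T3 is an immortalised fibroblast line, and the stable line used here carries wild-type PKR behind a promoter that tetracycline represses. Control cultures grew in DMEM with 5% fetal calf serum and 1 µg/ml tetracycline. In the other cultures tetracycline had been withdrawn for 5 h, and the labels give no serum content for them. Total RNA from either condition was hybridised to 1 first-type array and 1 array marked MB in its title, and these 2 types hold different probe sets. No value therefore has a replicate, no test was possible, and the number of arrays limits the precision. The labels do not say whether the line is 1 clone or whether the transgene is of mouse or another species.

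Type I and type II interferons bind receptors at the cell surface and act through JAK kinases and STAT factors, which raise the transcription of many antiviral and antigen-presenting genes. STAT complexes bind gamma-activated sites, and STAT and IRF factors bind interferon-stimulated response elements in the promoters of these genes. PKR is itself the product of an interferon-induced gene, is activated by double-stranded RNA and phosphorylates the translation factor eIF2 alpha. The comparison asks whether turning on PKR, without added interferon or virus in the labels, is accompanied by changes in interferon pathway transcripts.

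The promoters of the members that hold either of these motifs before the start are shown, because they are the sites through which an interferon response is known to reach such genes. The windows are from RefSeq on the GRCm38.p6 build, in which all 8 members matched, with 12 annotated starts. Each window ran from 250 bases before to 50 bases after the start and was searched on both strands for the response element (GAAANN followed directly by GAAA, where N is any base) and the gamma-activated site TTCNNNGAA, which reads the same on both strands. Only the 250 bases before the start are printed, 5′ to 3′ on the gene's strand, with matches in capitals. The first annotated start of Irf1 lies on the plus strand (chr11:53769764-53770013), as do Irf2 (chr8:46739495-46739744), the first start of Irf8 (chr8:120736108-120736357) and Gbp2 (chr3:142620413-142620662), while Socs1 lies on the minus strand (chr16:10785537-10785786).
Irf1: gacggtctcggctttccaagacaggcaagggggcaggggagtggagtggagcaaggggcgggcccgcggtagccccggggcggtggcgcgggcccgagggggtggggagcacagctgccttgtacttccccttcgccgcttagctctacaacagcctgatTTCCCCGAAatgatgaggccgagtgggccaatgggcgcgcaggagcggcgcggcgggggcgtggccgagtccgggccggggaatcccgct
Irf2: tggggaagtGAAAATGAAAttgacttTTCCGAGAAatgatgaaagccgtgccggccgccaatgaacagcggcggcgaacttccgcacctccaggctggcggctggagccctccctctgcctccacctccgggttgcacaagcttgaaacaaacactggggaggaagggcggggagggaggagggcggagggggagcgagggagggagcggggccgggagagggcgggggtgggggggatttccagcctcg
Irf8: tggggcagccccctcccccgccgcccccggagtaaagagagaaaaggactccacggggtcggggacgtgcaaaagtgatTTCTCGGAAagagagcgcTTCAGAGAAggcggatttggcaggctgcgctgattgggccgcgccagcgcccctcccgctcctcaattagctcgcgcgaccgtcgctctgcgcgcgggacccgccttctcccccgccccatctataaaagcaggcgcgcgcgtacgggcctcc
Socs1: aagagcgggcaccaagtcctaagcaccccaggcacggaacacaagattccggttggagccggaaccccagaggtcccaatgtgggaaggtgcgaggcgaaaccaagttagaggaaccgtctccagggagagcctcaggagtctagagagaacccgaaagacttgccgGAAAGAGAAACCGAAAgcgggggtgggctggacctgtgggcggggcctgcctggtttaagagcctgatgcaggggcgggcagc
Gbp2: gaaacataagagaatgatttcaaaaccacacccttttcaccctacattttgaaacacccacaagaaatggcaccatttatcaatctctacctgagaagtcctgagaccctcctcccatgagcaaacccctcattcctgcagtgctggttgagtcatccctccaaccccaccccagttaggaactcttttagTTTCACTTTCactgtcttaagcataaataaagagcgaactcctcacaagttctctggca

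The response element matched in 3 of the 8 members, Irf2, Socs1 and Gbp2, against 3.99% of 27025 genes with a window. In Socs1 the match occurred at 2 positions that overlap, GAAAGAGAAA from base -83 to -74 and GAAACCGAAA from -77 to -68, where -1 is the last base before the start. In Gbp2 the match lay on the opposite strand, TTTCACTTTC from -59 to -50. The gamma-activated site matched in 4 members, against 9.55% of genes. Irf1 held TTCCCCGAA from -90 to -82, Irf2 held TTCCGAGAA from -224 to -216, and Irf8 held TTCTCGGAA from -171 to -163 and TTCAGAGAA from -153 to -145. In Adar the only match lay after the third annotated start, from 22 to 30. The windows of Irf3 and Lgals3bp held neither motif. Either motif was present in 6 of 8 members and in 12.9% of all genes. The members were picked as interferon pathway genes, so this describes the choice, and a match is a run of letters, not a shown binding site.

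**Figure D1:**
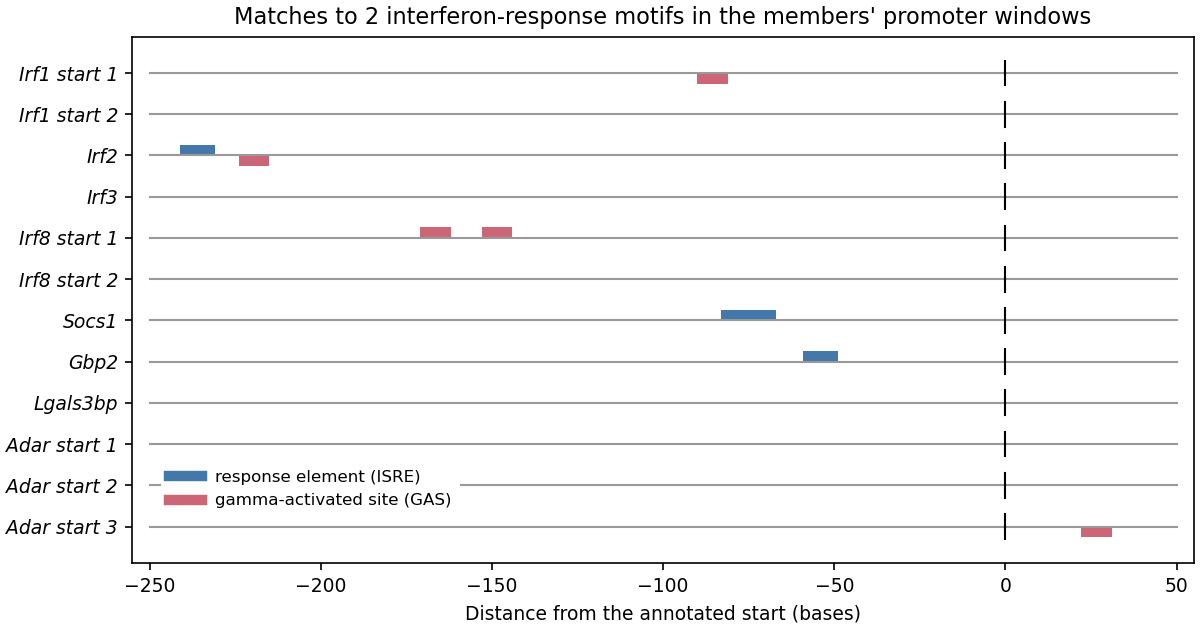
Positions of the motif matches in the 12 promoter windows of the 8 members, as distance in bases from the annotated start (vertical ticks). Blue bars are response element matches and red bars gamma-activated site matches. The 2 overlapping Socs1 matches appear as 1 bar, and all matches except that of Adar lie before the start.

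The 8 members went in different directions. Irf8, Socs1, Gbp2 and Lgals3bp read at least 2-fold lower after withdrawal, Irf1, Irf2, Irf3 and Adar read higher by less than 2-fold, and no member was higher by 2-fold. A probe set counted as measured when both its intensities exceeded a floor, the 25th percentile of all values of its array type, which was 130 for the first type and 80.0 for MB arrays. All 8 were measured. As background, 4.02% of all measured first-type probe sets and 6.65% of those on MB arrays were at least 2-fold lower, and 4.36% and 8.46% at least 2-fold higher. The 4 lower genes were already known to be past 2-fold in these data when the 8 were chosen, so their number among 8 cannot be read against these shares. A stricter control floor was set at the 95th percentile of 39 bacterial and yeast control probe sets (281.5 for the first type and 340.4 for MB arrays). Irf8 and Socs1 were above it on both arrays, while Gbp2 and Lgals3bp were below it after withdrawal. Above the control floor 1.29% of first-type probe sets were lower by 2-fold and 1.88% higher, and for MB arrays these shares were 0.767% and 1.97%.

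**Figure D2:**
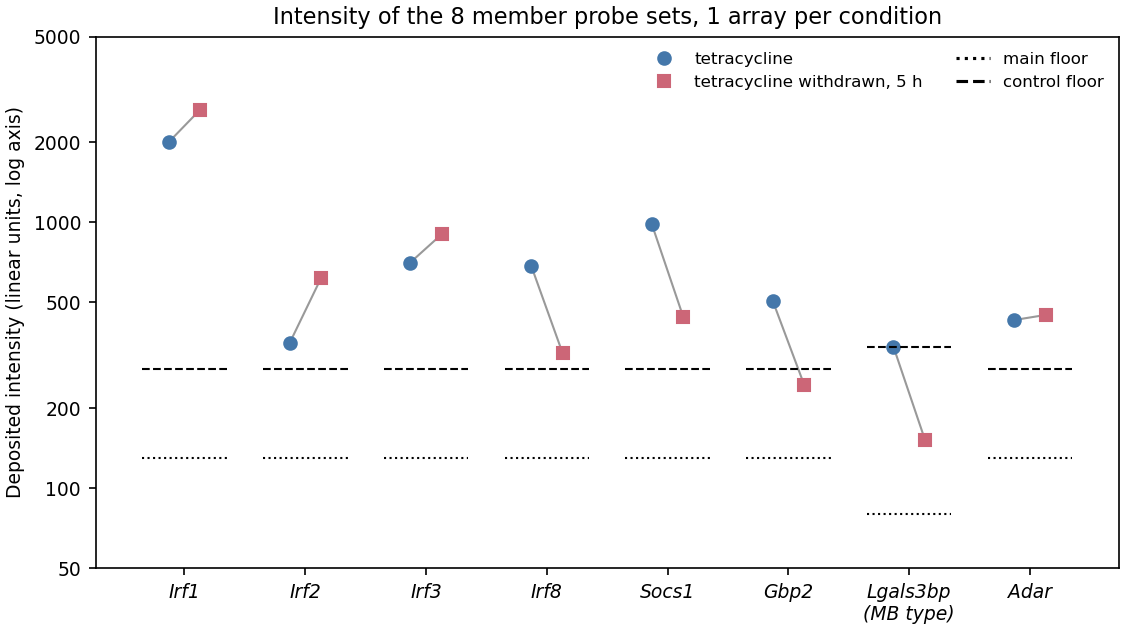
Deposited intensity of the 8 member probe sets on a log axis, with 1 array for tetracycline (blue circles) and 1 for withdrawal (red squares), joined by a line per gene. Dotted and dashed segments mark the main and the control floor of that gene's array type, and there are no error bars because each point is 1 array. Irf8, Socs1, Gbp2 and Lgals3bp descend, and Gbp2 and Lgals3bp end below the control floor.

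Among the factors, Irf1 is the activator that interferon and NF-kB induce within a short time. Its probe set (M21065_s_at) read 2006.7 with tetracycline and 2657.5 after withdrawal. The withdrawn array was higher by 1.32-fold, a log2 change of 0.41. For scale, the spread is given for each member, a robust SD of the log2 changes of the 200 probe sets nearest to it in level. It mixes probe noise with real differences and is no replicate error. For Irf1 the spread was 0.35, so its change was 1.16 times the spread.

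Irf2 binds the same sites as Irf1 and is known as its antagonist on many promoters. Its probe set (J03168_s_at) read 351.1 and 616.2, the largest upward change of the 8, with a log2 change of 0.81 against a spread of 0.54. This stayed under the 2-fold limit, at 1.76-fold. Irf3 is the factor that is phosphorylated downstream of RNA and DNA sensors and turns on the interferon beta gene. It read 706.8 and 903.4 (u75839_s_at), a log2 change of 0.35 that was smaller than its spread of 0.39. Irf1, Irf2 and Irf3 were thus all higher on the withdrawn array, by 1.28-fold to 1.76-fold.

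Irf8, a factor known mainly from macrophages, dendritic cells and B cells, went the other way. Its probe set (M32489_s_at) read 688.6 with tetracycline and 323.0 after withdrawal. The withdrawn value was 2.13-fold lower, a log2 change of -1.09 and 1.99 times the spread of 0.55 in size. Markers of blood cells are given beside it because the line is a fibroblast line. The pan-leukocyte gene Ptprc read 710.1 and 363.9 (log2 change -0.96). Of 11 probe sets for macrophage and leukocyte genes, 5 were above the control floor on both arrays and 9 were higher after withdrawal, with summed intensities of 6036.2 with tetracycline and 7026.7 after it. Of 12 probe sets for lymphocyte genes, 6 were higher after withdrawal, and their summed intensity was 4512.5 with tetracycline and 3208.1 after it. Bright probe sets weigh most in these sums, such as Cd14 in the first list and Ptprcap in the second. Lower ones included the immunoglobulin gene Ighm on 1 MB probe set (946.8 and 192.9, log2 change -2.30) and on another (347.4 and 69.7, -2.32). A first-type probe set of Ighm was lower as well (321.2 and 232.4, -0.47). The B cell receptor gene Cd79b (417.5 and 190.2, -1.13) and the T cell receptor gene Cd3g (207.4 and 82.3, -1.33) were lower too. After withdrawal these probe sets all read under the control floor. Higher ones included Cd79a (74.1 and 205.3, 1.47) and Cd4 (123.5 and 233.9, 0.92). Ighm was higher on other first-type probe sets (22.8 and 90.4, 1.99, and 28.0 and 67.9, 1.28). None of these higher probe sets reached the control floor in either condition. The only lymphocyte genes above the control floor on both arrays were the T cell receptor gene Cd3e (638.9 and 753.3, 0.24) and Ptprcap (1161.6 and 855.1, -0.44). Of the macrophage and leukocyte genes above the control floor on both arrays, only Ptprc was lower. The others were Cd14 (3222.2 and 3425.7), Laptm5 (574.3 and 911.6), Spi1 (475.4 and 527.0) and Lyz2 (432.7 and 562.8). Fcgr3 (240.8 and 505.6) and Coro1a (151.9 and 348.4) were past 2-fold upwards, from values below the control floor. The macrophage genes Csf1r (25.4 and 47.3) and Adgre1 (50.8 and 33.8) were below the main floor on both arrays. Fibroblast markers were bright, with 10 of 11 genes above the control floor on both arrays and Vim, which encodes vimentin, at 12981.7 and 11404.4. The part of other cells or of unspecific signal in the Irf8 value was not tested, and in RNA of whole cultures fewer cells with a transcript and less of it per cell cannot be told apart.

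Socs1 encodes the feedback inhibitor that binds JAK kinases and shuts off interferon signalling. Its probe set (ab000677_s_at) read 983.1 with tetracycline and 440.7 after withdrawal, both above the control floor. The withdrawn array was 2.23-fold lower, a log2 change of -1.16. At 2.36 times its spread of 0.49, this was the largest change of the 8 relative to the spread.

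The targets differed among themselves. Gbp2, a guanylate-binding protein of the interferon-inducible GTPases, read 507.7 and 245.4 (aa288442_s_at). The log2 change was -1.05 with a spread of 0.77. Against the control floor the tetracycline value was at least 1.80-fold higher. Lgals3bp, which encodes a secreted glycoprotein that binds galectins, was the only member on the MB type and read 340.5 and 152.4 (x67809_s_at). Its log2 change of -1.16 was smaller than its spread of 1.33, and its tetracycline value lay at the control floor of 340.4.

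Adar encodes the enzyme that deaminates adenosines in double-stranded RNA, from a constitutive and an interferon-induced promoter. It read 429.4 and 448.8 (AA176017_f_at), a log2 change of 0.064 against a spread of 0.53. The suffix f of its name marks, in the Affymetrix scheme, probes shared by a family of sequences, and the array cannot say which of its promoters was used. Eif2ak2, the gene of PKR itself and also interferon-induced, read 643.3 and 663.6 (log2 change 0.045). A transgene from another species may not be seen by this mouse probe set, while a mouse transgene might be. The labels do not give the species, so the value does not check the induction, and whether PKR rose was not tested.

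**Figure D3:**
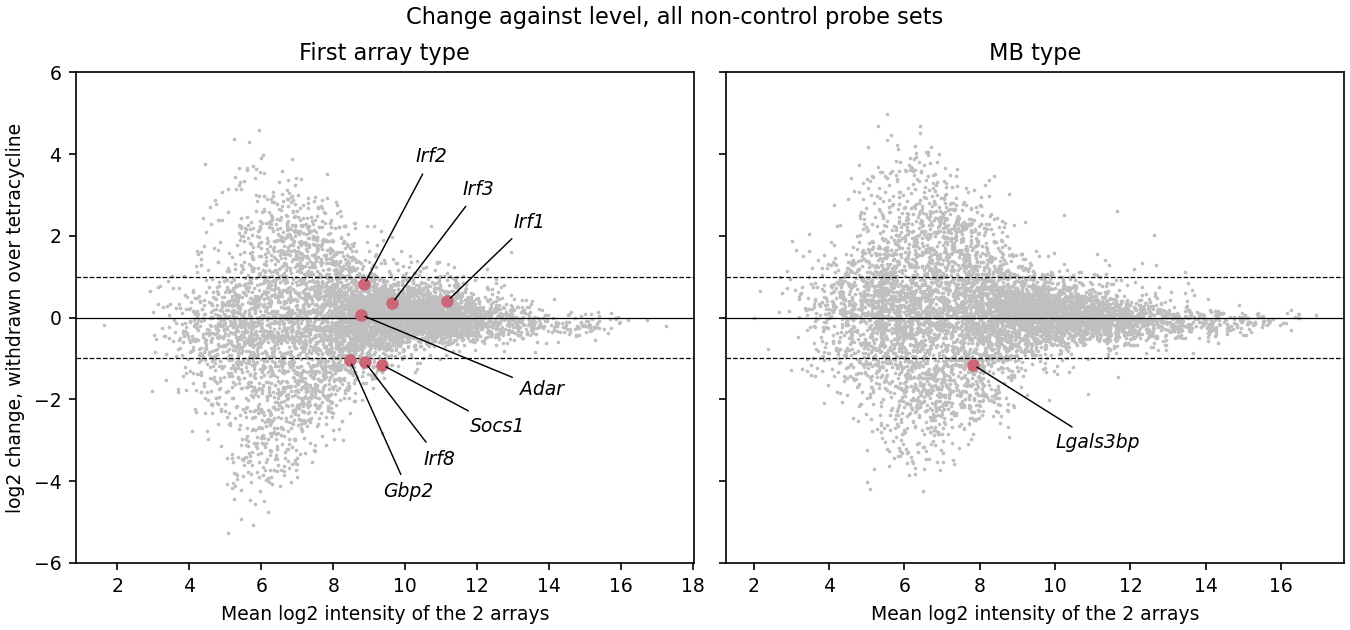
The log2 change of withdrawn over tetracycline intensity against the mean log2 intensity, for all non-control probe sets of first-type (left) and MB arrays (right), with the members in red. Dashed lines mark 2-fold. Grey points fan out towards low levels, where Gbp2 and Lgals3bp lie, and Socs1 and Irf8 sit towards the lower edge of the points at their level.

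In all, 4 other scalings and a pseudocount of 50 added to both intensities were tried. Each member kept its direction in all 5. The log2 change lay between 0.38 and 0.42 for Irf1, between 0.73 and 0.84 for Irf2, between -1.09 and -0.99 for Irf8, between -1.16 and -1.07 for Socs1, between -1.05 and -0.92 for Gbp2 and between -1.28 and -0.95 for Lgals3bp. With the pseudocount only Socs1 was still past 2-fold, since adding a constant pulls low values towards each other. A scaling does not replace a replicate array.

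**Figure D4:**
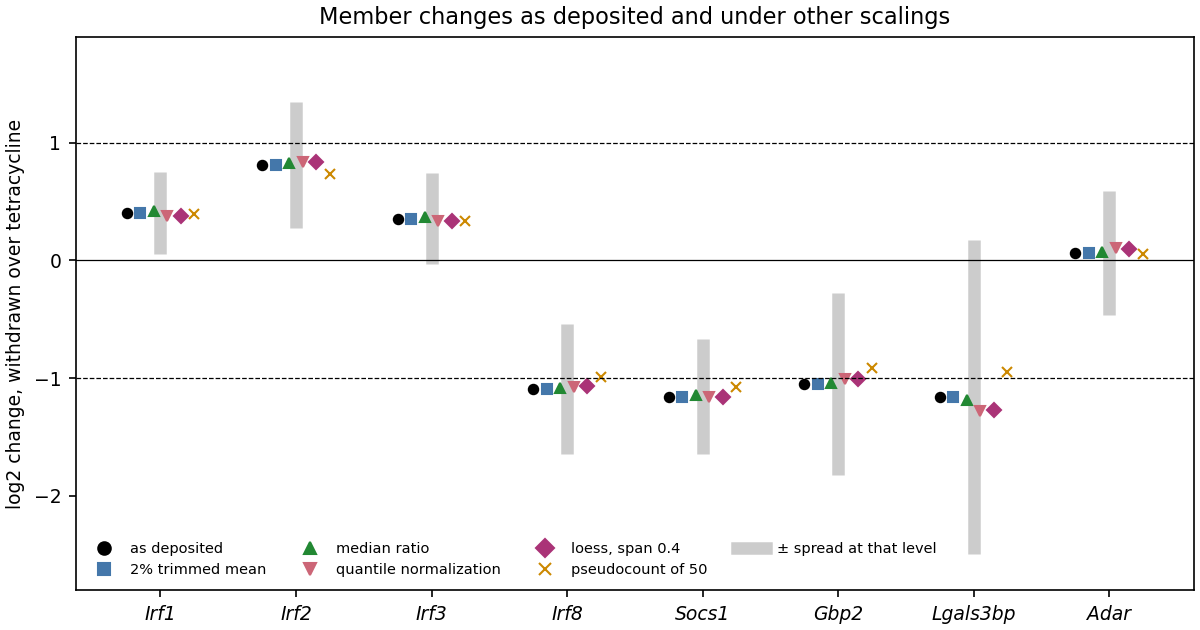
The log2 change of withdrawn over tetracycline for each member, as deposited (black circles), under 4 other scalings and with a pseudocount of 50 (symbols in the key). Grey bars span the deposited change plus and minus the spread of the 200 probe sets nearest in level, and dashed lines mark 2-fold. The bars of Irf3, Lgals3bp and Adar reach past 0.

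The other genes of the pathway came from a list of 127 names, of which 78 had at least 1 probe set with a single symbol. Of these, 48 genes were measured at the main floor, each by the median over its measured probe sets. They were evenly split, with 23 higher and 25 lower to any extent. By at least 2-fold 2 were higher and 2 lower, where 5.26% of all 4507 measured genes were higher and 4.22% lower. The median log2 change of the 48 was -0.042, beside -0.0037 for all measured genes. At the control floor 34 genes remained, with 1 higher by 2-fold (2.07% of all genes) and 0 lower (1.2%).

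The genes of interferon beta and gamma gave no signal above the floor. Ifnb1 read 21.2 with tetracycline and 38.7 after withdrawal, and Ifng 27.7 and 42.8. Both were chosen after their values were seen. Of the interferon alpha genes, Ifna2 read 1033.4 and 910.4 on 1 probe set and 112.3 and 98.8 on another, and Ifna9 read 356.6 and 605.0. Ifna1 was 1 of the 2 genes past 2-fold upwards, from 96.5 to 297.1 (log2 change 1.62), with both values below the control floor. The alpha genes are near-identical copies, so their probe sets may share signal.

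The receptor chains were measured more clearly. Il10rb, the chain that interferon lambda shares with interleukin 10, read 297.9 and 606.8, a log2 change of 1.03. It was the other gene past 2-fold upwards and the only one above the control floor. Ifngr1, the ligand-binding chain for interferon gamma, read 1042.4 and 1679.9 (log2 change 0.69). Ifnar1, a chain of the type I receptor, read 751.9 and 506.2 and was thus lower (-0.57).

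Of the signalling genes, Stat3 was higher on both its probe sets, from 4976.6 to 8317.6 (log2 change 0.74) and from 1543.7 to 1719.2 (0.16). Jak1 read 813.3 and 805.2. The probe sets of Jak2 disagreed: the only measured one was lower (568.1 and 334.4), and the others were below the floor with tetracycline. Irf7, which amplifies type I interferon production, read 179.8 and 338.0 (0.91), and Irf5 read 168.8 and 235.5 (0.48). These IRF genes also read higher, but each by less than the spread at its level (1.09 and 1.28). Both were below the control floor with tetracycline, and Irf5 was below it after withdrawal too. The adaptor gene Myd88 read 753.1 and 1220.3 (0.70).

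Other feedback inhibitors went both ways, with 2 of 4 measured genes higher and 2 lower. Socs3, which restrains JAK signalling from cytokine receptors, read 1717.0 and 1717.8. Cish, of the same family, read 954.6 and 808.7 (log2 change -0.24). The phosphatase gene Ptpn2, which acts on JAK and STAT proteins, was higher, at 550.3 and 864.2 (0.65), and Pias3, an inhibitor of STAT activity, was lower, at 481.7 and 291.5 (-0.72). Whether these genes differ from Socs1 was not tested.

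Antiviral effectors were lower to any extent in 10 of 13 measured genes, with a median log2 change of -0.32, beside 2270 of 4507 for all measured genes. At the control floor this was 6 of 8, with a median of -0.19, beside 1818 of 3582. Both genes past 2-fold downwards belonged here, and both act in conjugation of the ubiquitin-like protein ISG15. Ube2l6, the conjugating enzyme, read 793.3 and 263.4 (log2 change -1.59), and Uba7, the activating enzyme, 295.0 and 138.4 (-1.09), with its second probe set at 163.3 and 48.8. After withdrawal both genes read below the control floor. Against that floor the tetracycline value was at least 2.82-fold higher for Ube2l6 but only at least 1.048-fold for Uba7. The Ube2l6 probe set also carries the suffix f. Isg15 itself, looked up after these values were seen, read 207.4 and 253.1 (0.29), both below the control floor.

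The antiviral genes named for their intensity were also lower, by less than 2-fold. Ifi27 read 3589.1 and 2649.0 (log2 change -0.44), Pml, which organises nuclear bodies, 2161.2 and 1730.5 (-0.32), and the nucleotide hydrolase gene Samhd1 1012.5 and 965.5 (-0.069). Classical interferon markers were looked up after their values were seen. Ifit2 read 483.2 and 348.6 (-0.47), and Mx2 512.4 and 274.8 (-0.90), so both were lower. After withdrawal Mx2 was below the control floor, against which its tetracycline value was at least 1.82-fold higher. Ifit3 read 92.8 and 201.2, below the main floor with tetracycline and below the control floor on both arrays. Mx1 (56.4 and 21.1) and both Ifit1 probe sets were below the main floor on both arrays.

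Of 94 probe sets of the list, 23 were below the main floor on both arrays and show no change either way. Another 17 were above it on 1 array only, 9 of them on the withdrawn array and 8 on the tetracycline array. The bound, the bright value over the floor, reached 2-fold in 5. Oas1g, of the oligoadenylate synthetases that activate RNase L, was at least 3.76-fold higher after withdrawal (49.6 and 301.0), and Rsad2, the viperin gene, at least 2.12-fold higher (112.1 and 275.6). In the other direction, with tetracycline Trim21 was at least 3.43-fold higher (444.4 and 118.9), Ptpn11 at least 2.04-fold (265.2 and 28.7), as was Ifngr2 on the MB type, at least 2.01-fold (160.8 and 52.0). The second Trim21 probe set read 10.6 and 11.0. The values of Oas1g, Rsad2, Ptpn11 and Ifngr2 were all below the control floor, against which the bound of Trim21 was 1.58-fold.

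GTPases other than Gbp2, antigen presentation genes and chemokines had no measured gene past 2-fold. Measured were 2 of 7, 10 of 13 and 3 of 5 genes with a probe set. The remaining genes of these groups had no change that could be called. Gbp7 read 365.5 and 456.9 (log2 change 0.32) and Irgm1 345.0 and 188.0 (-0.88). The 2 measured GTPases thus read opposite ways, each by less than the spread at its level (0.59 and 0.99). Irgm1 was below the control floor after withdrawal. B2m, the light chain of MHC class I, read 11693.7 and 9338.8 (-0.32), and the peptide loading gene Tapbp 4379.7 and 4153.4 (-0.076). The brightest probe set of the class I heavy chain gene H2-D1 read 9524.2 and 8873.9, and 5 of the 10 measured genes of this group were higher and 5 lower. The chemokine genes Ccl2 (9845.4 and 11759.7), Ccl7 (3234.4 and 3080.2) and Cxcl10, a sensitive interferon target (315.6 and 291.6), had log2 changes of 0.26, -0.071 and -0.11.

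**Figure D5:**
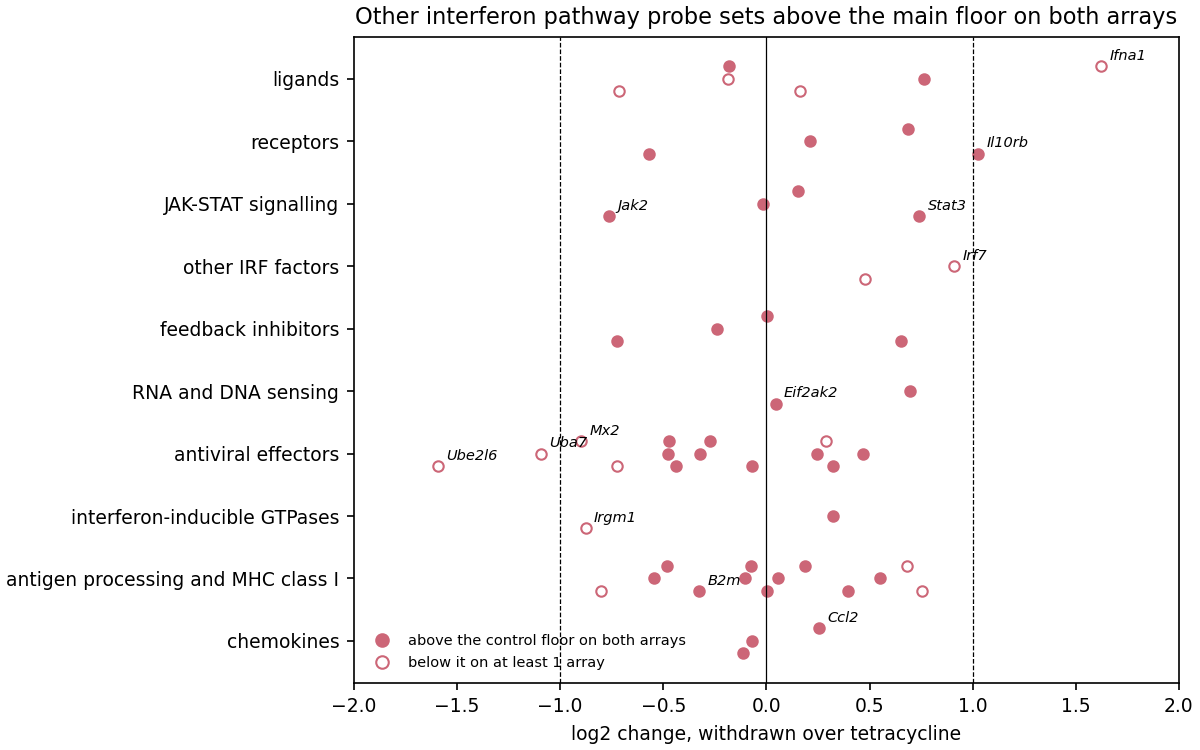
The log2 change of withdrawn over tetracycline for each probe set of the other pathway genes that was above the main floor on both arrays, by role. Filled points were above the control floor on both arrays, open points were not, and dashed lines mark 2-fold. Points lie on both sides of 0, with Ube2l6 and Uba7 past the left line and Il10rb and Ifna1 past the right line.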

How the data were processed

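Gene expression was measured in 4 samples, 1 array per condition and array type. The authors deposited 1 linear intensity per probe set and array. The sources used here do not give software, scaling or a genome build, so the build of the promoter windows is that of the RefSeq table only. The 2% trimmed means of the non-control probe sets lay within 0.042% (first type) and 0.067% (MB type) of each other between conditions, so the deposited intensity was used without scaling. Control probe sets (61 per type) were removed, leaving 6523 and 6534. Symbols came from the platform annotation, updated through Entrez identifiers: 5541 and 2001 probe sets had 1 symbol, 197 and 27 several, and 785 and 4506 none. Changes are log2 ratios without a pseudocount, and no statistical test was made. Probe sets differ in brightness, so intensity served to choose genes to name. Levels of different genes were used only in describing the cell type markers. The summed intensities there mix genes and both array types, so they are a rough description.

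The members, the pathway lists and the control floor were chosen with earlier results of these data known. Named from the lists were genes past 2-fold and up to 3 of the highest level per list. Where bounds are given, the floor was the divisor. Counting was tried on simulated data with the same noise at all levels and changes planted only in bright probe sets. It therefore does not cover values near the floors. Alternatives were 4 scalings, a lower floor (64.9 and 40.0), a higher floor (259 and 160), the control floor, no floor, 1.5-fold and 3-fold limits, only the brightest probe set of a gene, and either array type by itself. Python 3.11.15, numpy 2.4.6, pandas 2.3.3, statsmodels 0.14.6 and matplotlib 3.10.9 were used. A planned comparison of the IRF protein sequences was not made.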

Additional observations from a re-analysis of the deposited data

How the results depend on the processing

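The direction of all 8 members held under the 4 scalings and the pseudocount. The number of members lower by 2-fold was 4, and 2 at the higher floor and at the control floor (Irf8 and Socs1 in both), and 0 at a 3-fold limit. At 1.5-fold 1 member, Irf2, was higher. With the pseudocount only Socs1 was lower by 2-fold. The 4 scalings, the lower floor and no floor left these numbers at 4 and 0. Members were not recounted on either array type alone, and only Lgals3bp is on the MB type. Each member has 1 probe set, so taking the brightest could not change its call. For the 48 measured pathway genes, the number higher by 2-fold was 2. It became 5 at the lower floor, 12 without a floor, 9 at 1.5-fold, and 1 each at the higher floor, the control floor, the 3-fold limit and on either array type alone. The number lower was 2. It became 6 at the lower floor, 9 without a floor, 9 at 1.5-fold, 1 each with quantile normalization, the higher floor and the 3-fold limit, and 0 at the control floor and with MB arrays alone. The list median was -0.042, and 0.24 on the MB type alone, where 12 genes were measured. The counts over all probe sets moved with the floor and with the fold limit. On the first type, 192 were higher and 177 lower, against 368 and 368 at the lower floor, 71 and 50 at the higher floor, 67 and 46 at the control floor, 662 and 868 without a floor, 545 and 471 at 1.5-fold and 29 lower with 46 higher at 3-fold. On the MB type, 369 were higher and 290 lower, against 619 and 534, 165 and 108, 54 and 21, 1005 and 805, 769 and 561, and 136 higher with 122 lower in the same order. A higher floor or limit counts fewer probe sets by construction. No paired analysis was possible because the labels give no replicate numbers and a condition has a single array per type. Values near the floors limit Gbp2 and Lgals3bp most.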
